A study of Mus musculus with 21 samples.

Results

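Acetyl-CoA in brain tissue is made by several enzymes, and 10 genes of its supply were described here: Acss2, Acss1, Acly, Slc25a1, Pdha1, Pdhb, Crat, Nat8l, Aspa and Slc16a1. They were taken by symbol from a table of 24498 genes, in which each had 1 row, and all 10 passed the filter on low counts that left 14578 genes for testing. The study measured RNA in mouse hippocampus after ethanol, with and without a vector against the enzyme ACSS2, in 21 libraries. The comparisons below used 14 libraries from ethanol-treated animals. These were ACSS2 knockdown dorsal hippocampus (n = 4), control dorsal hippocampus (n = 3), ACSS2 knockdown ventral hippocampus (n = 3) and control ventral hippocampus (n = 4). One further knockdown library, of total hippocampus, is given as a value only.

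All animals were males aged to 8 weeks. Ethanol was given into the peritoneum at 2 g/kg, as a 20% solution in saline, in knockdown and control groups alike. The knockdown agent was the AAV2/9 vector U6.shACSS2.CMV.EGFP, in which the U6 promoter drives a short hairpin RNA and EGFP is a fluorescent marker. The sample protocol places this vector in the dorsal hippocampus, whereas the series text can be read as a systemic injection. No vector is described for the control arm, and the time between ethanol and dissection is not stated. It is not stated that the replicates were different animals, and all p-values therefore reflect library-to-library spread, which may be technical. The tissue was bulk, so fewer cells of a type and less RNA per cell cannot be told apart.

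Acetyl-CoA is the donor of acetyl groups for histones and other proteins, the substrate of lipid synthesis and the fuel of the citrate cycle. In the nucleus and cytosol it is formed from acetate by acetyl-CoA synthetases or from exported citrate by ATP-citrate lyase, while in mitochondria most of it comes from pyruvate through the pyruvate dehydrogenase complex. The liver turns ethanol into acetate, which blood carries to the brain. The genes below are ordered by these steps, from acetate use to citrate export, pyruvate oxidation, acetylcarnitine, N-acetylaspartate and transport at the cell membrane.

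The 15 deep ethanol libraries, total hippocampus included, held 2819837 to 13240179 reads in genes. Genes took 57.4% to 81.0% of uniquely aligned reads, and Rn45s, the ribosomal RNA precursor, took 0.625% to 20.7% of gene reads. The low extreme was shared by ventral control 1 (0.625%), ventral knockdown 3 (1.08%) and dorsal knockdown 2 (1.17%), against at least 3.49% in the other deep libraries. Dorsal knockdown 5 and ventral knockdown 1 held only 5021 and 8744 gene reads and were left out, as were the 4 untreated libraries (4279 to 221847 gene reads), in which Acss2 had 0 reads. In the untreated libraries genes took only 0.991% to 1.43% of uniquely aligned reads, so they differed from the deep libraries in more than depth. No comparison of ethanol with no treatment was therefore made. Markers of neurons, summed over 10 genes, came to 8605 to 14851 CPM (counts per 1000000 reads, scaled between libraries by the TMM method), and no marker of any list was at 0 throughout a group.

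The promoters of Acss2, Acly and Slc25a1 are shown because these 3 genes are commonly described together as targets of the lipid-regulating SREBP factors. Their point estimates of knockdown against control did not share a direction, and none was called (values below). Each line gives 250 bases before to 50 bases after the annotated start, from RefSeq on GRCm38.p6, at chr2:155517793-155518092 on the plus strand for Acss2, chr11:100527951-100528250 on the minus strand for Acly and chr16:17928170-17928469 on the minus strand for Slc25a1. Capitals mark the CCAAT box (CCAAT or, on the other strand, ATTGG) and the GC box (CCGCCC or GGGCGG).
Acss2: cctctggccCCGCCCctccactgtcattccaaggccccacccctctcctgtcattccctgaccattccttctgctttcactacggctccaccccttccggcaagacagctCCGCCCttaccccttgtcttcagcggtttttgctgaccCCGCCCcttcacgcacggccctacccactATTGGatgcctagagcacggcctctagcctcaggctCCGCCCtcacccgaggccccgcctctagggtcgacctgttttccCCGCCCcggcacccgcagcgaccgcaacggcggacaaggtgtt
Acly: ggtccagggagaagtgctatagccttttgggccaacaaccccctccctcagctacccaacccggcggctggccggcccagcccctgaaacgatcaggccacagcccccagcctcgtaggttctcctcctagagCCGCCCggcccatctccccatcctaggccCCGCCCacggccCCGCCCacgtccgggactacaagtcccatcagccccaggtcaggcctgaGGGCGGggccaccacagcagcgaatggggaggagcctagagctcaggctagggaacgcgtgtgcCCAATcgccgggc
Slc25a1: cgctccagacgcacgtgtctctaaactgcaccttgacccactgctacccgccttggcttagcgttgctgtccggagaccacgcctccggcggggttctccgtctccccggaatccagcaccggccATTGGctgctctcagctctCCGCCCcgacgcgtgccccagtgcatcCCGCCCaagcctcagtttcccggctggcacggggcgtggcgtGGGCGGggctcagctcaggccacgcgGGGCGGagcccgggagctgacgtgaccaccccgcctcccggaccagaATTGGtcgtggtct
Acss2 held 5 GC boxes and 1 CCAAT box, Acly 4 and 1, and Slc25a1 4 and 2. Of all RefSeq promoter windows of this length, 35.7% held a GC box and 37.4% a CCAAT box, counting both strands, and these motifs do not overlap each other. The E-box CACGTG, a palindrome, occurred once in Slc25a1 and once in Slc16a1 among the 8 promoters available for the 10 genes, and in 7.15% of all windows. The RefSeq table held no entry for Crat or Nat8l.

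Acss2 encodes the nuclear and cytosolic acetyl-CoA synthetase that the hairpin targets, and it checks the labels. It lies at chr2:155517948-155585724 on the plus strand of mm10 and is protein-coding. In dorsal hippocampus it had 44.7, 41.3, 17.7 and 19.0 CPM in the knockdown libraries, against 52.3, 58.3 and 53.4 CPM in the control libraries. All 4 knockdown libraries lay below all 3 controls, and they fell into a pair close to the controls and a pair far below them. The means were 30.7 ± 14.3 CPM in knockdown and 54.7 ± 3.21 CPM in control (SD, n = 4 and n = 3). The log2 fold change was -0.84 (SE 0.32, 95% interval -1.53 to -0.15), with an unadjusted p of 0.0199 and an adjusted p of 0.964 in edgeR's quasi-likelihood test over all 14578 genes, so Acss2 was not called. Markers of microglia and reactive astrocytes were higher in the same libraries, with 0 of them called. Microglial markers, summed over 10 genes, came to 512 to 1383 CPM in dorsal knockdown and 339 to 470 CPM in dorsal control, and 10 of 10 were higher in knockdown (median log2 fold change 1.26), 7 with an unadjusted p under 0.05. Of 8 reactive astrocyte markers 8 were higher (median 2.21), 5 with an unadjusted p under 0.05. Of 10 general astrocyte markers, however, 3 were higher and 7 lower (median -0.12). Of 11 oligodendrocyte markers 9 were higher and 2 lower (median 0.16). The part of these cells in the dorsal values was not tested.

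In ventral hippocampus Acss2 had 28.8, 64.4 and 36.7 CPM in knockdown, against 49.6, 53.4, 48.0 and 47.5 CPM in control. Ventral knockdown 3 was above every control library, and the other knockdown libraries were below every one. The means were 43.3 ± 18.7 CPM in knockdown and 49.6 ± 2.68 CPM in control (SD, n = 3 and n = 4), and the log2 fold change was -0.21 (SE 0.32, unadjusted p = 0.517, adjusted p = 1.00, edgeR). The total-hippocampus knockdown library had 58.0 CPM, within the range of the dorsal controls. In ventral knockdown, too, 10 of 10 microglial markers (median log2 fold change 0.13) and 8 of 8 reactive astrocyte markers (median 0.36) were higher. Of 11 choroid plexus markers 11 were lower there (median -5.16), 10 with an unadjusted p under 0.05 in edgeR. Of these markers 0 were called, and their part in the ventral values was not tested. A fit added after seeing the data left out the 3 libraries lowest in Rn45s. These were dorsal knockdown 2, ventral knockdown 3 and ventral control 1, with 41.3, 64.4 and 49.6 CPM of Acss2. Dorsal knockdown 2 belonged to the pair close to the dorsal controls, and ventral knockdown 3 was the highest ventral library. In that fit the Acss2 difference was -1.01 in dorsal (unadjusted p = 0.0056, adjusted p = 0.444, edgeR) and -0.62 in ventral hippocampus (unadjusted p = 0.0908, adjusted p = 0.619). Averaged over both regions it was then -0.82 (unadjusted p = 0.0037, adjusted p = 0.401), still without a call.

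An exact two-sided permutation test of mean CPM gave p = 0.0857 in dorsal hippocampus, for a difference of -24.0 CPM, and p = 0.457 in ventral hippocampus, for -6.37 CPM. The smallest p that either design allows is 0.0286. Over both regions, with labels permuted within each, the knockdown mean was 37.0 CPM and the control mean 52.1 CPM, each the mean of its regional means, and p was 0.049. This value rested on single libraries: it was at or over 0.05 in 12 of 14 tests that left out 1 library, reached 0.126 without ventral knockdown 2 and was 0.0019 without ventral knockdown 3. The Acss2 difference between regions, dorsal minus ventral, was -0.63 on the log2 scale (95% interval -1.60 to 0.35, unadjusted p = 0.189, adjusted p = 0.998, edgeR).

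The control libraries were close together and the knockdown libraries far apart. Within regions, the SD of Acss2 on the log2 CPM scale was 0.665 among the 7 knockdown libraries and 0.0793 among the 7 controls, a ratio of 8.38. Across 11784 genes the median ratio was 1.10, and only 0.543% of genes had a smaller SD than Acss2 among the controls. Among the knockdown libraries 85.8% of genes had a smaller SD than Acss2, and the median SD was 0.394. The ratio thus came with an unusually small SD in control more than with an unusually large one in knockdown. Of the other 9 genes, Crat had a ratio of 2.78 (SD 0.189 in knockdown and 0.0681 in control) and the rest 0.469 to 1.17. These spreads are descriptive and carry no test.

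**Figure D1:**
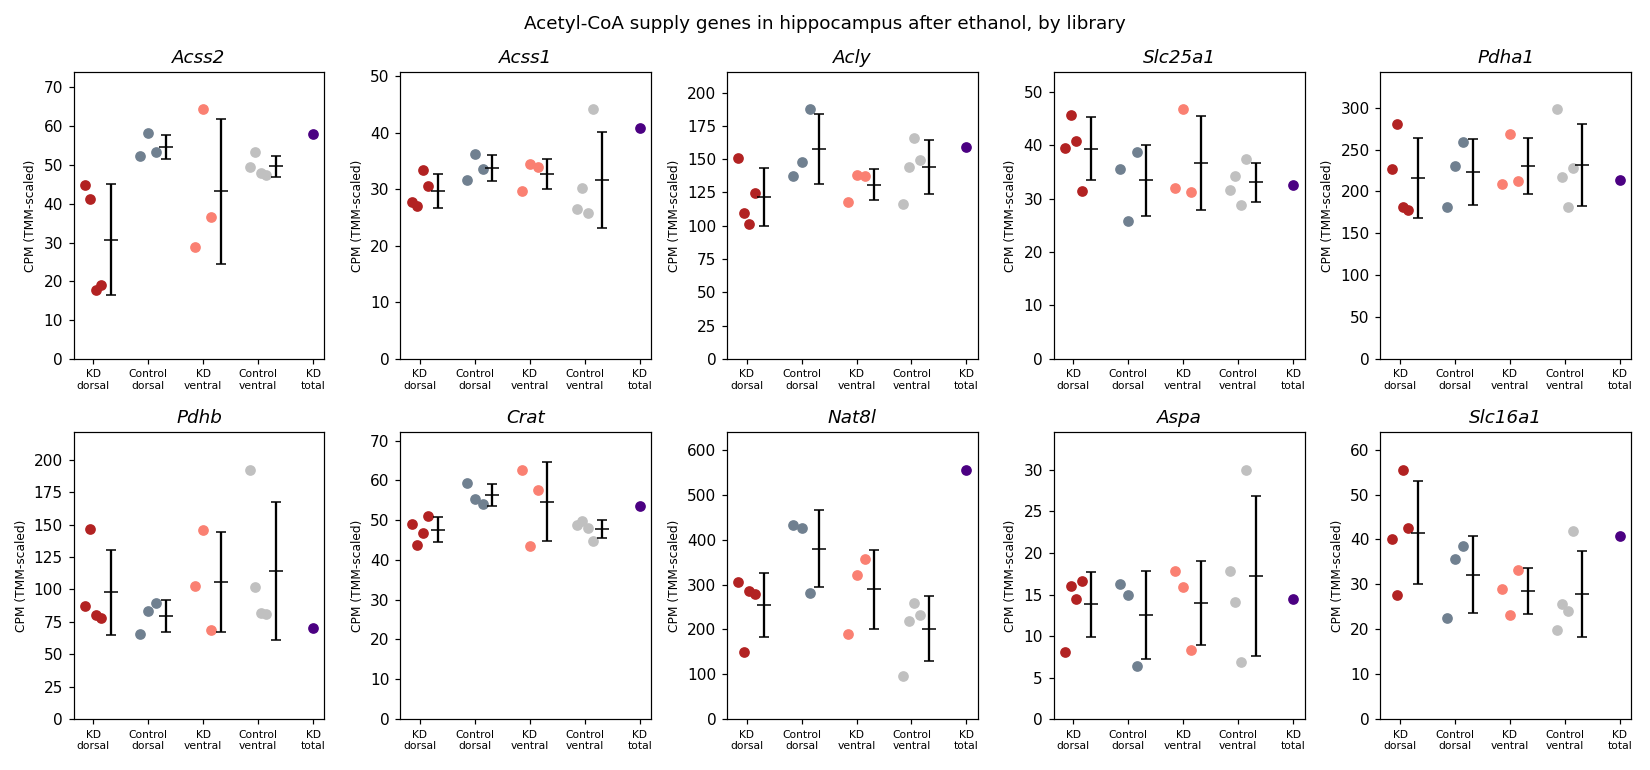
TMM-scaled CPM (y axis, from 0) of the 10 genes in each deep ethanol library, by group (x axis; KD, knockdown; n = 4, 3, 3, 4 and 1 from left to right); points are libraries, and the horizontal tick and bar beside them are the mean and SD. Acss2 in dorsal knockdown spans 17.7 to 44.7 CPM, below the dorsal controls at 52.3 to 58.3 CPM, while the groups of most other genes overlap.

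Reads of Acss2 cannot be separated with certainty from those of genes that share its exons on the opposite strand. These are Ggt7, Gss and Acss2os, because the kit was directional but no source used here gives the strand setting of the counting. In the deep ethanol libraries Acss2 had 119 to 753 reads, Ggt7 239 to 1762, Gss 46 to 260 and Acss2os 0 to 1. The untreated libraries went the other way, with 4 and 0 Acss2os reads in knockdown and 8 and 12 in control beside 0 of Acss2.

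In the dorsal knockdown comparison edgeR called 0 of 14578 genes (0%). Before adjustment 667 genes (4.58%) had a p under 0.05, Acss2 being 1 of them and the only one of the 10. DESeq2 called 11 genes there, none of them among the 10. The ventral comparison also had 0 calls by edgeR (0%), 593 genes (4.07%) with p under 0.05 before adjustment, 0 of the 10 among these, and 35 calls by DESeq2, none of the 10. The dorsal groups did not overlap for Acss2 and Crat, which is 2 of 10 genes, both lower in knockdown. Over all tested genes 3.2% were lower without overlap. This share counts only the direction that these 2 genes took, and the share in either direction is not given. In ventral hippocampus all 10 genes overlapped between the arms, against 2.66% of all tested genes without overlap. The other 9 genes are thus given by value, and none of them rose or fell by the test.

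Acss1 encodes the mitochondrial acetyl-CoA synthetase, which uses the same substrate as ACSS2 and lies on the same chromosome (chr2:150618105-150668500, minus strand). Its dorsal values were 27.8, 27.0, 33.4 and 30.6 CPM in knockdown, against 31.6, 36.3 and 33.6 CPM in control. Its ventral values were 29.6, 34.4 and 34.0 CPM in knockdown, against 26.6, 30.2, 25.7 and 44.2 CPM in control. The groups overlapped in both regions, and ventral control 4 was the highest library. The log2 fold change was -0.19 in dorsal (95% interval -0.63 to 0.25) and 0.03 in ventral hippocampus (-0.41 to 0.47). The upper bound in dorsal tissue corresponds to 1.19-fold.

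Within a library, the ratio of Acss2 to Acss1 reads does not depend on scaling between libraries. It was 1.61, 1.53, 0.531 and 0.621 in dorsal knockdown, against 1.65, 1.61 and 1.59 in dorsal control. It was 0.971, 1.87 and 1.08 in ventral knockdown, against 1.87, 1.77, 1.87 and 1.08 in ventral control. Dorsal knockdown 3 and 4 and ventral knockdown 2 were the libraries with more Acss1 than Acss2 reads. The low ratio of ventral control 4 (1.08) came with the highest Acss1 of its group and an Acss2 level like that of the other controls, and this library also had the highest summed choroid plexus markers (15709 CPM, against 48.4 to 654 CPM in the other 3 ventral controls). The part of those markers in the ratio was not tested.

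**Figure D2:**
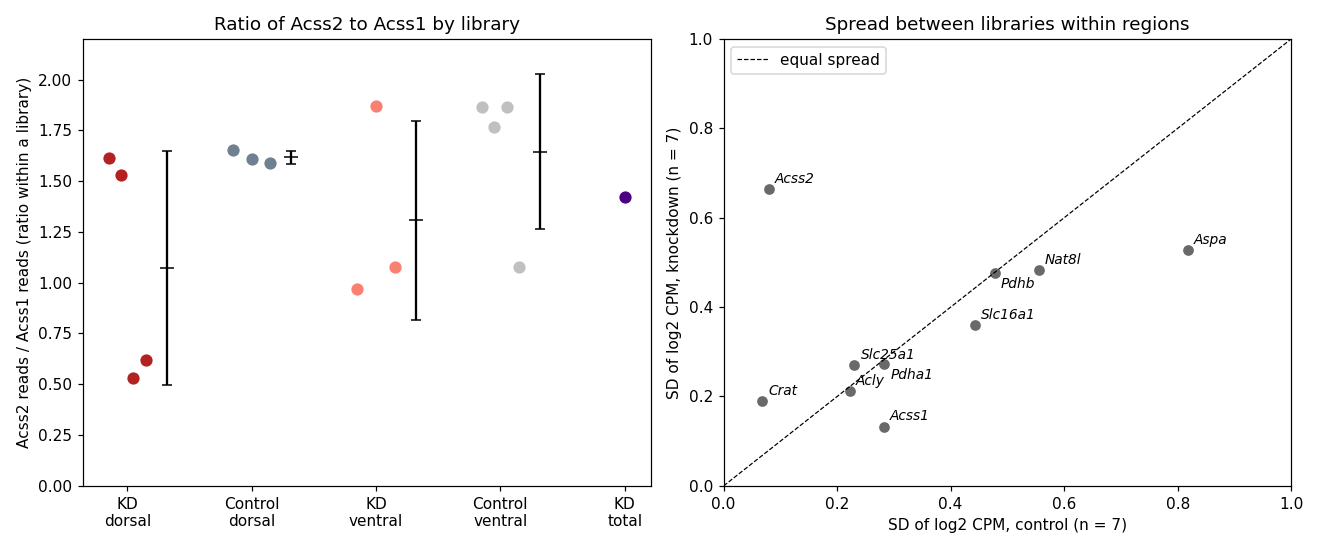
Left, ratio of Acss2 to Acss1 reads in each deep ethanol library (y axis), by group (KD, knockdown), with mean and SD as tick and bar; right, SD of log2 CPM within regions among the 7 knockdown (y axis) and the 7 control libraries (x axis) for each gene. Dorsal knockdown 3 and 4 lie at 0.531 and 0.621, and Acss2 stands far above the line of equal spread with 0.665 in knockdown and 0.0793 in control.

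Acly encodes ATP-citrate lyase, the enzyme that forms acetyl-CoA from citrate outside mitochondria (chr11:100476353-100528000, minus strand). It had 151.1, 109.7, 101.4 and 124.3 CPM in dorsal knockdown, against 137.5, 147.7 and 187.4 CPM in dorsal control. Its ventral values were 117.4, 138.1 and 137.0 CPM in knockdown, against 116.5, 143.9, 165.8 and 149.6 CPM in control. In dorsal tissue 3 of 4 knockdown libraries lay below every control, and dorsal knockdown 1 lay among the controls. Knockdown over control, the log2 fold change was -0.38 in dorsal (unadjusted p = 0.0701, adjusted p = 0.999, edgeR) and -0.15 in ventral hippocampus. Averaged over both regions it was -0.27 (95% interval -0.56 to 0.03). Without the 3 libraries lowest in Rn45s that average was -0.31 (unadjusted p = 0.0474, adjusted p = 0.605, edgeR). The direction was thus the same as that of Acss2 and not opposite to it, without a call.

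On a scale per kilobase of the principal transcript, Acss2 made up 30.7%, 36.1%, 20.8% and 18.7% of the sum of Acss2 and Acly in dorsal knockdown, against 36.3%, 37.2% and 29.9% in dorsal control. It made up 26.9%, 41.1% and 28.6% in ventral knockdown, against 39.0%, 35.8%, 30.3% and 32.3% in ventral control. Dorsal knockdown 3 and 4 and ventral knockdown 2 and 4 lay below all 7 controls on this measure, and in both regions the groups overlapped.

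Slc25a1 encodes the mitochondrial citrate carrier, which exports the substrate of ATP-citrate lyase (chr16:17925223-17928219, minus strand). It had 39.4, 45.7, 40.7 and 31.4 CPM in dorsal knockdown, against 35.6, 25.8 and 38.8 CPM in dorsal control. In ventral hippocampus it had 31.97, 46.7 and 31.2 CPM in knockdown, against 31.6, 34.3, 28.9 and 37.4 CPM in control. In dorsal tissue 3 of 4 knockdown libraries were above every control, and dorsal knockdown 4 was not. The log2 fold change was 0.24 in dorsal (95% interval -0.22 to 0.69, adjusted p = 0.999, edgeR) and 0.13 in ventral hippocampus (-0.32 to 0.58). Without the 3 libraries lowest in Rn45s it was 0.16 in dorsal and -0.10 in ventral hippocampus.

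Pdha1 and Pdhb encode the alpha and beta subunits of the pyruvate dehydrogenase component of the complex. Pdha1 (chrX:160122209-160138413, minus strand) had 226.5, 280.0, 181.0 and 177.4 CPM in dorsal knockdown, against 181.5, 229.8 and 259.0 CPM in dorsal control. Ventral values were 208.8, 268.7 and 212.4 CPM in knockdown, against 298.2, 217.5, 181.1 and 228.6 CPM in control. The groups overlapped broadly, and the log2 fold changes were -0.05 (95% interval -0.54 to 0.43) and -0.03 (-0.51 to 0.46).

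Pdhb (chr14:8165996-8173025, minus strand) had 87.0, 146.5, 80.2 and 77.8 CPM in dorsal knockdown, against 65.9, 83.3 and 89.7 CPM in dorsal control. In ventral hippocampus it had 102.3, 145.8 and 68.7 CPM in knockdown, against 192.5, 101.6, 81.7 and 80.9 CPM in control. Single libraries stood high in all groups but dorsal control, and the log2 fold changes were 0.29 in dorsal (95% interval -0.44 to 1.02) and -0.13 in ventral hippocampus (-0.86 to 0.60). The 3 libraries with the highest Pdhb, dorsal knockdown 2, ventral knockdown 3 and ventral control 1, also had the highest Pdha1. In these same 3 libraries Rn45s took its smallest shares of gene reads. Without them the Pdhb differences were 0.03 in dorsal and -0.06 in ventral hippocampus, and those of Pdha1 were -0.20 and -0.01.

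Crat encodes carnitine O-acetyltransferase, which moves acetyl groups between CoA and carnitine (chr2:30400471-30415813, minus strand). It had 49.1, 43.6, 46.7 and 51.1 CPM in dorsal knockdown, against 59.3, 55.4 and 54.0 CPM in dorsal control. The ventral libraries had 62.7, 43.6 and 57.6 CPM in knockdown, against 48.9, 49.7, 47.9 and 44.7 CPM in control. All dorsal knockdown libraries lay below all dorsal controls, whereas 2 of 3 ventral knockdown libraries lay above all ventral controls. On the log2 scale the fold change was -0.24 in dorsal (SE 0.17, unadjusted p = 0.171, adjusted p = 0.999, edgeR) and 0.18 in ventral hippocampus (SE 0.17, unadjusted p = 0.298, adjusted p = 1.00). The difference of these effects was -0.42 (95% interval -0.92 to 0.08, unadjusted p = 0.0958, adjusted p = 0.998), and it was not called. Without the 3 libraries lowest in Rn45s Crat had -0.20 in dorsal and 0.33 in ventral hippocampus (unadjusted p = 0.0482, adjusted p = 0.523, edgeR). The difference was then -0.52 (unadjusted p = 0.0229, adjusted p = 0.460, edgeR), still without a call.

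Nat8l encodes the synthase of N-acetylaspartate, an abundant acetyl store of neurons (chr5:33995984-34005916, plus strand). It had 306.9, 149.9, 285.9 and 279.7 CPM in dorsal knockdown, against 433.2, 427.3 and 280.5 CPM in dorsal control. In ventral hippocampus it had 190.2, 322.5 and 357.9 CPM in knockdown, against 96.4, 219.0, 260.1 and 231.7 CPM in control. Dorsal knockdown 2 and 4 lay below every dorsal control, the latter narrowly (279.7 against 280.5 CPM), and dorsal knockdown 1 and 3 lay within the control range. Ventral knockdown 3 and 4 lay above every ventral control, and ventral knockdown 2 lay within their range. The log2 fold change was -0.58 in dorsal (SE 0.34, 95% interval -1.31 to 0.16) and 0.51 in ventral hippocampus (95% interval -0.23 to 1.25). Their difference was -1.09 (SE 0.49, unadjusted p = 0.0419, adjusted p = 0.998, edgeR). For that comparison edgeR called 0 of 14578 genes (0%) and DESeq2 called 9, while 672 genes (4.61%) had p under 0.05 before adjustment. Without the 3 libraries lowest in Rn45s, which include the lowest Nat8l values of their groups in dorsal knockdown 2 and ventral control 1, the difference was -0.58.

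Aspa encodes aspartoacylase, which releases acetate from N-acetylaspartate and is known from oligodendrocytes (chr11:73304992-73329596, minus strand). It had 8.1, 16.1, 14.4 and 16.6 CPM in dorsal knockdown, against 16.3, 14.96 and 6.4 CPM in dorsal control. The ventral libraries had 17.8, 15.9 and 8.3 CPM in knockdown, against 17.8, 14.1, 6.9 and 30.1 CPM in control. The groups overlapped throughout, and the log2 fold changes were 0.17 (95% interval -0.84 to 1.17) and -0.32 (-1.31 to 0.66). The highest library, ventral control 4, also had the highest sum of 11 oligodendrocyte markers (12790 CPM). The lowest, dorsal control 3, had the lowest sum (2310 CPM). Between these extremes the order was not kept throughout. Ventral control 1 had 17.8 CPM of Aspa at a sum of 3412 CPM, and dorsal knockdown 4 had 16.6 CPM at 8053 CPM. Ventral control 4 also had the highest summed choroid plexus markers (15709 CPM). The part of oligodendrocyte or choroid plexus content in these differences was not tested.

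Slc16a1 encodes the monocarboxylate transporter MCT1, which carries lactate, pyruvate, ketone bodies and acetate across membranes and is known from brain endothelium and glia (chr3:104638668-104658462, plus strand). It had 40.1, 27.7, 55.6 and 42.7 CPM in dorsal knockdown, against 22.4, 35.6 and 38.5 CPM in dorsal control. In ventral hippocampus it had 29.0, 23.2 and 33.3 CPM in knockdown, against 19.8, 25.7, 24.1 and 41.9 CPM in control. In dorsal tissue 3 of 4 knockdown libraries were above every control, and dorsal knockdown 2 lay within the control range. The log2 fold change was 0.35 in dorsal (SE 0.30, 95% interval -0.28 to 0.99, adjusted p = 0.999, edgeR) and 0.01 in ventral hippocampus (95% interval -0.62 to 0.65). Ventral control 4 was the highest ventral library at 41.9 CPM, whereas the other ventral controls had 19.8 to 25.7 CPM. It was also the library with the highest summed choroid plexus markers (15709 CPM). Dorsal knockdown 3, the highest library for Slc16a1 and the lowest for Acss2, also had the highest sum of 8 reactive astrocyte markers (4748 CPM). That sum was 927 to 4748 CPM in dorsal knockdown and 421 to 645 CPM in dorsal control. The next highest sums were those of ventral knockdown 2 (2115 CPM) and ventral control 2 (1931 CPM), with 29.0 and 25.7 CPM of Slc16a1. Endothelial markers, summed over 10 genes, were 247 to 347 CPM in dorsal knockdown and 272 to 328 CPM in dorsal control. The part of these cell types in the Slc16a1 values was not tested.

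**Figure D3:**
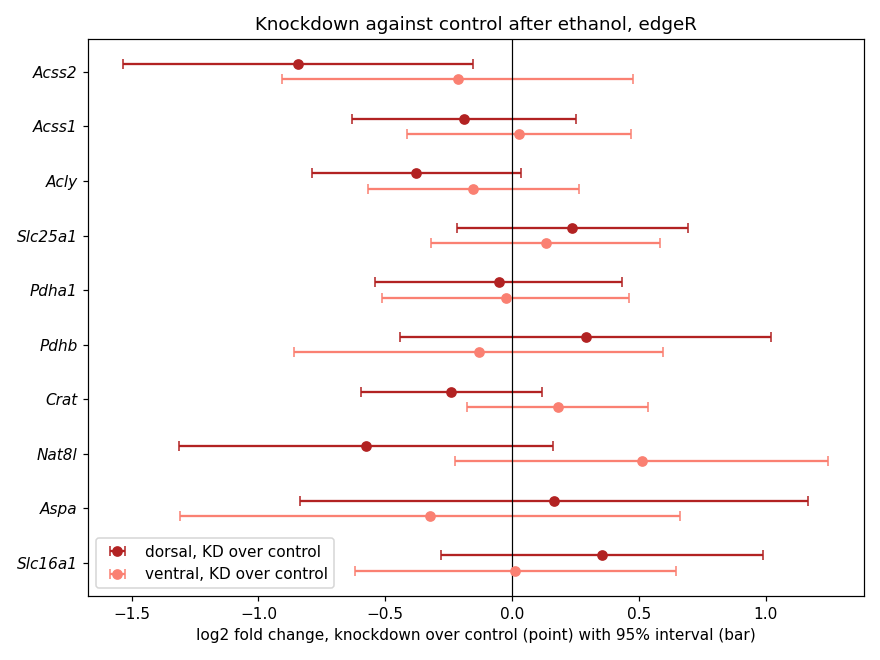
log2 fold change of knockdown over control (x axis) with its 95% interval for each gene (y axis), from the edgeR fit, in dorsal (upper, dark) and ventral hippocampus (lower, light). The interval of dorsal Acss2, -1.53 to -0.15, is the only one of the 20 that leaves out 0, and it is not adjusted for the number of genes tested.

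Whether a partner was higher where Acss2 was lower can be read in the dorsal comparison from the upper ends of the intervals. On a linear scale these were 1.02-fold for Acly, 1.08-fold for Crat, 1.12-fold for Nat8l, 1.19-fold for Acss1, 1.35-fold for Pdha1 and 1.61-fold for Slc25a1. For Slc16a1, Pdhb and Aspa they were 1.99-fold, 2.03-fold and 2.24-fold. The point estimates were themselves increases for Slc16a1 (1.28-fold), Pdhb (1.22-fold), Slc25a1 (1.18-fold) and Aspa (1.12-fold), and decreases for the other partners. Each upper end is the largest increase that the 95% interval leaves in, per gene and unadjusted. Averaged over both regions edgeR called 0 of 14578 genes (0%) and DESeq2 called 4, none of them among the 10, while 577 genes (3.96%) had p under 0.05 before adjustment. Acss2 had a mean log2 fold change of -0.53 (unadjusted p = 0.0364, adjusted p = 1.00), and the other 9 lay between -0.27 (Acly) and 0.18 (Slc25a1 and Slc16a1).

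Because the knockdown libraries differed so much in Acss2, each gene was also fitted against the Acss2 level of its library within the 4 groups. The slope is the log2 change per log2 unit of Acss2, and a partner that is higher where Acss2 is lower has a negative slope. Since Acss2 hardly varied among controls, the slopes rest mainly on the 7 knockdown libraries. Slc16a1 had a slope of -0.44 (SE 0.25, unadjusted p = 0.0951), Aspa -0.21, Crat -0.20 (unadjusted p = 0.180), Acss1 -0.11 and Nat8l -0.04. Acly had 0.15, Slc25a1 0.24, Pdha1 0.36 (unadjusted p = 0.0724) and Pdhb 0.48 (SE 0.28, unadjusted p = 0.107). Adjusted p-values for these 9 genes were 0.574 to 0.970 in edgeR. In that fit edgeR called 0 of 14577 genes (0%) and DESeq2 called 32, none of them among the 9, while 1303 genes (8.94%) had p under 0.05 before adjustment. Without the 3 libraries lowest in Rn45s the slopes, of which none was called, were -0.22 for Slc16a1, -0.84 for Aspa, 0.00 for Crat, -0.14 for Acss1 and 0.22 for Nat8l, which changed sign. Acly had 0.32, Slc25a1 0.04, Pdha1 0.25 and Pdhb 0.05.

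**Figure D4:**
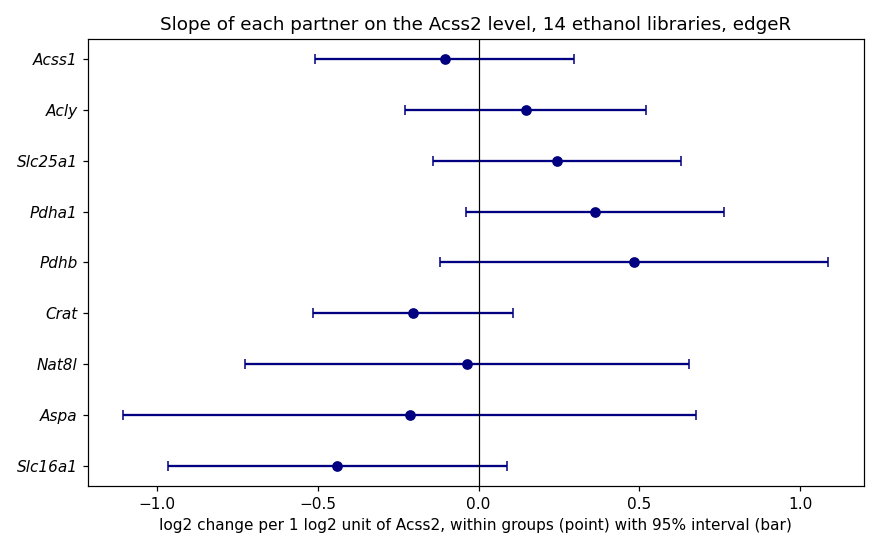
Slope of each of the 9 partner genes on the Acss2 level within groups (x axis, log2 change per log2 unit of Acss2) with its 95% interval, over 14 libraries, edgeR. Slc16a1 lies lowest at -0.44 and Pdhb highest at 0.48, and all 9 intervals include 0.

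A further 104 genes of acetyl-CoA metabolism were listed in 8 groups, and 99 of them were tested. In dorsal hippocampus 53 were higher and 46 lower in knockdown, with a median log2 fold change of 0.04 beside 0.03 over all genes, and 0 were called. The unadjusted p was under 0.05 for 2.02% of them, beside 4.58% of all genes. These were Ppcdc, an enzyme of CoA synthesis (13.5 ± 2.30 CPM in knockdown and 9.12 ± 1.78 in control, SD, log2 fold change 0.55, adjusted p = 0.999, edgeR), and Grm3, a glutamate receptor at which N-acetylaspartylglutamate acts (43.6 ± 11.8 CPM in knockdown and 72.1 ± 14.7 in control, SD, -0.73, adjusted p = 0.999, edgeR). Me1, the cytosolic malic enzyme, had 57.4 ± 9.92 CPM in dorsal knockdown and 40.4 ± 4.61 CPM in dorsal control (SD), without overlap of the groups and without a call.

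By list, further genes with the smallest p in dorsal hippocampus are given as log2 fold changes of knockdown over control, none of them called. In pyruvate entry these were Pdp2, a pyruvate dehydrogenase phosphatase (-0.55), and Mpc1, a subunit of the mitochondrial pyruvate carrier (0.38). Aco1, the cytosolic aconitase, had -0.30, and its groups did not overlap. In fatty acid oxidation Hadh had 0.43 and Hadhb 0.48. In ketone body metabolism Oxct1, which starts the use of ketone bodies, had -0.29. Srebf2, the factor of cholesterol synthesis, had -0.46, and Ppcs, of CoA synthesis, had 0.63. Acy3, an aminoacylase, had 0.88 at about 1.40 CPM in knockdown. The transporters Slc16a3 and Slc16a6 had -0.91 and 0.55, so Slc16a3 was lower in dorsal and higher in ventral knockdown, and that difference is not called either.

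In ventral hippocampus 49 of the 99 genes were higher and 50 lower in knockdown, with a median of 0.00 beside -0.01 over all genes, and 0 were called. The genes with an unadjusted p under 0.05 were Slc16a3, the lactate transporter MCT4 (3.52 ± 2.997 CPM in knockdown and 1.27 ± 0.288 in control, SD, log2 fold change 1.46, adjusted p = 1.00, edgeR), and Pdp1, a phosphatase that activates pyruvate dehydrogenase (45.6 ± 6.81 CPM in knockdown and 64.3 ± 6.99 in control, SD, -0.51, adjusted p = 1.00, edgeR). They made up 2.02% of the list, beside 4.07% of all genes. Acss3, a mitochondrial synthetase for propionate, had 1.75 ± 0.784 CPM in knockdown and 4.10 ± 3.62 CPM in control (SD), with overlap. Of 9 genes of lipid synthesis, which uses acetyl-CoA, 6 were lower in dorsal knockdown, among them Fasn, the fatty acid synthase (291 ± 115 CPM in knockdown and 392 ± 93.5 in control, SD). In ventral knockdown 5 of the 9 were higher and 4 lower, with a median log2 fold change of 0.03, and 0 were called in either region.

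Further genes with the smallest p of their list in ventral hippocampus, none of them called, had log2 fold changes between -0.60 (Pdp2) and 0.87 (Slc13a3, a dicarboxylate transporter that carries N-acetylaspartate). In the citrate cycle Mdh2 had 0.24, and in fatty acid metabolism Acsl5 had 0.35. Ketone body genes had 0.20 (Bdh1) and 0.24 (Aacs). Mlycd, the malonyl-CoA decarboxylase, had 0.46 and Acacb, an acetyl-CoA carboxylase, -0.58. Sirt3, a mitochondrial deacetylase, had 0.52 and Slc33a1, the acetyl-CoA transporter of the endoplasmic reticulum, -0.44. Naalad2, a peptidase of N-acetylaspartylglutamate, had -0.42.

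Over the slopes on Acss2, 63 of the 99 genes were positive and 36 negative, with a median of 0.19 beside 0.00 over all genes. An unadjusted p under 0.05 was found for 10 genes, all positive, which is 10.1% beside 8.94% of all genes, and 0 were called. Of 19 citrate cycle genes 16 had positive slopes, with a median of 0.29, and of 12 genes of pyruvate entry and the pyruvate dehydrogenase complex 10 had, also with 0.29. Named after their values were seen, Dlat, the acetyltransferase of that complex, had a slope of 0.68 (SE 0.20, unadjusted p = 0.0039, adjusted p = 0.559, edgeR) and Suclg1, a succinate-CoA ligase subunit, 0.62. Without the 3 libraries lowest in Rn45s these slopes were 0.49 and 0.15. In that fit all 10 slopes were smaller but still positive, and only that of Dlat kept an unadjusted p under 0.05 (0.0276, edgeR). Fh1 went from 0.57 to 0.21, Mdh2 from 0.46 to 0.24 and Pdhx from 0.43 to 0.17. Counts by list are not given for that fit. Reactive astrocyte markers moved the other way: 8 of 8 had negative slopes, 7 with an unadjusted p under 0.05, with a median of -1.31. All 10 microglial markers also had negative slopes, while 9 of 10 neuron markers had positive ones, with a median of 0.27. Slopes were negative for 8 of 10 endothelial markers (median -0.62, 3 with an unadjusted p under 0.05) and for 8 of 10 astrocyte markers (median -0.36, 4 with an unadjusted p under 0.05). Their part in the slopes of the acetyl-CoA genes was not tested.

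**Figure D5:**
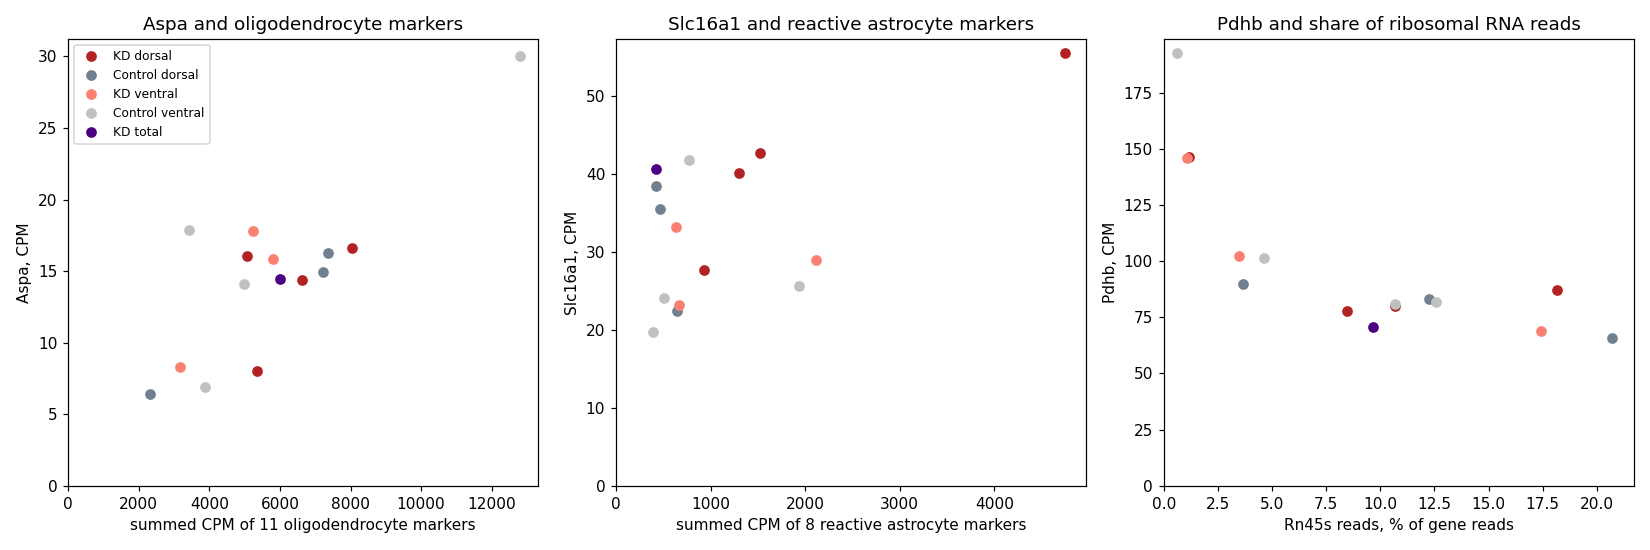
CPM of Aspa, Slc16a1 and Pdhb (y axes, from 0) in the 15 deep ethanol libraries, against the summed CPM of oligodendrocyte markers, the summed CPM of reactive astrocyte markers and the percentage of gene reads from Rn45s (x axes); points are libraries, coloured by group (KD, knockdown). Aspa is highest (30.1 CPM) where oligodendrocyte markers are highest (12790 CPM), Slc16a1 is highest (55.6 CPM) where reactive astrocyte markers are highest (4748 CPM), and Pdhb is highest (192.5 CPM) where the Rn45s share is smallest (0.625%). Each of these is a single library. At the next highest reactive astrocyte sums (2115 and 1931 CPM) Slc16a1 is at 29.0 and 25.7 CPM. At an oligodendrocyte sum of 3412 CPM Aspa is at 17.8 CPM.

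Between regions of the control arm, the dorsal groups did not overlap the ventral ones for Nat8l and Crat, 2 of 10 genes and both higher in dorsal tissue, against 5.56% of all genes that were higher without overlap. That share, too, counts only the direction that these 2 genes took. Nat8l averaged 380 ± 86.5 CPM in dorsal control and 202 ± 72.4 CPM in ventral control (SD, n = 3 and n = 4), a log2 fold change of 0.91 (SE 0.34, unadjusted p = 0.0185, adjusted p = 0.731, edgeR). Crat averaged 56.2 ± 2.76 CPM in dorsal control and 47.8 ± 2.18 CPM in ventral control (SD), a log2 fold change of 0.23 (adjusted p = 0.732). These comparisons use the same dorsal control libraries as the knockdown comparison. Here edgeR called 0 of 14578 genes (0%) and DESeq2 called 13, none of them among the 10, while 813 genes (5.58%) had p under 0.05 before adjustment. In the knockdown arm all 10 genes overlapped between regions, against 1.78% of all genes without overlap. There edgeR and DESeq2 each called 0 genes (0%), while 317 genes (2.17%) and 391 genes had p under 0.05 before adjustment. The largest differences in that arm were those of Slc16a1 (log2 fold change 0.55, dorsal over ventral, unadjusted p = 0.0845) and Acss2 (-0.49).

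Levels per kilobase of the principal transcript ordered the 10 genes as follows, over the 7 control libraries. Pdha1 was highest at 80.0 ± 14.6 CPM per kilobase (SD), ahead of Pdhb at 65.7 ± 28.0 and Nat8l at 42.6 ± 18.3. Acly followed at 34.1 ± 5.07, then Slc25a1 at 19.9 ± 2.81 and Acss2 at 17.7 ± 1.29. Crat had 12.2 ± 1.19, Aspa 9.95 ± 5.17, Acss1 9.01 ± 1.74 and Slc16a1 6.72 ± 1.98 CPM per kilobase. Neighbours in this order overlapped in range except Acly with Slc25a1 and Acss2 with Crat. Over the 7 knockdown libraries the mean of Acss2 was 12.3 ± 5.54 CPM per kilobase (SD), next to 11.98 ± 1.70 for Crat. These levels assume that 1 transcript stands for each gene.

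The genes with the profile most like that of Acss2 were taken by the smallest root mean square distance of centred log2 CPM over the 15 deep libraries, among 11419 genes. They were Dlx1as (0.276), Fitm2 (0.305), Gpt2 (0.314), Chst10 (0.326) and Slc6a15 (0.333), where a flat profile would lie at 0.545, the SD of Acss2. Dlx1as is annotated antisense to Dlx1, Fitm2 takes part in lipid droplet formation, Gpt2 is the mitochondrial alanine aminotransferase and Slc6a15 carries neutral amino acids. Reads of Dlx1as and Dlx1 cannot be told apart with certainty, for the strand reason given for Acss2. Among the 9 partners Acly was nearest at rank 113 (0.436), then Pdha1 at rank 329 (0.468), and Slc16a1 was farthest at rank 9714 (0.837). The distances are descriptive and share the depth and scaling of the same libraries.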

How the data were processed

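The authors deposited raw read counts for 24498 genes and 5 summary lines in 1 table of 21 libraries, with 0 unused sample columns. Reads had been aligned or counted with tools that the submitters' processing notes list as STAR (2.5.2a) and HTSeq (0.6.1p1), on mm10. The libraries were made with a directional kit, per the labels' protocols, and no source used here gives the strand setting of the counting. The summary lines stayed out of library sizes and tests. The 10 genes and the gene lists were chosen with earlier results of these data known.

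Counts of the 14 dorsal and ventral ethanol libraries with over 1000000 gene reads were fitted in edgeR 4.0.16 (R 4.3.3) with filterByExpr at a minimum count of 10, TMM scaling, robust quasi-likelihood F-tests and 4 group means. A second fit added the log2 CPM of Acss2 (prior count of 1). A gene was called when its p, adjusted by Benjamini and Hochberg over all tested genes, was under 0.05. Standard errors come from each F value, and intervals are at 95%. Scripts were tested on simulated data. Acss2 was also compared by exact permutation with scipy 1.17.1. DESeq2 1.42.0, RLE scaling, no filter, a replicate block, only the groups compared, all 20 dorsal and ventral libraries, and leaving out single libraries were tried as alternatives. A fit without the 3 libraries lowest in Rn45s was added after seeing the data.

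Named genes were the 10, the 2 genes of each pathway list with the smallest unadjusted p in each region, and the 5 most like Acss2; a few of the pathway genes are not reported here. Locations and transcript lengths came from the GENCODE annotation of mm10, using the principal transcript, and promoters from RefSeq. The total-hippocampus library entered no test.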

Additional observations from a re-analysis of the deposited data

Results flagged for a closer look

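Pdhb in dorsal knockdown 2, at 146.5 CPM, lay far from the other 3 libraries of its group (77.8 to 87.0 CPM) by Dixon's test. With 20 groups of 4 libraries examined, chance would flag about 1 in 20.

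The total-hippocampus knockdown library, which entered no comparison, had 557.1 CPM of Nat8l, the highest of the 15 deep libraries.

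Some of the genes had reads above the limit of 3 in the untreated or shallow libraries, which entered only alternative runs. Among the untreated libraries, Pdha1 had 13 reads in knockdown 1, against 11 and 44 in control 1 and 2. Nat8l had 21 reads in untreated knockdown 1, against 10 and 32 in untreated control 1 and 2, and 4 reads in the shallow ventral knockdown 1. Acss1 had 6 reads in untreated control 1. In untreated control 2, Acly had 10 reads, Crat 10 and Pdhb 4. Acss2 had 0 reads in all 4 untreated libraries. A count of 0 allows up to 3 reads, which is 13.5 to 701 CPM at their depths, for counting error only. That limit covers neither the small share of uniquely aligned reads that genes took there (0.991% to 1.43%) nor a different strand setting of the counting. Map3k15 shares exons with Pdha1 on the opposite strand. It had 211 and 13 reads in untreated knockdown 1 and 2, and 312 and 470 in untreated control 1 and 2. In the deep ethanol libraries it had 5 to 128 reads. The cause of the small share, the strand setting included, was not tested.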

How the results depend on the processing

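None of the 10 genes was called under any alternative run. Over the 7 comparisons edgeR called 0 genes, and under DESeq2 it was 11 in dorsal and 35 in ventral knockdown against control, 4 in their mean, 9 in their difference, 13 between control regions and 32 for the slope on Acss2. With all 20 dorsal and ventral libraries, 1 gene was called in the ventral comparison and 1 in the difference of effects. That run included the shallow libraries and the untreated ones, in which genes took about 1% of uniquely aligned reads. Without the 3 libraries lowest in Rn45s the counts were 7 in ventral, 3 in the mean, 6 in the difference and 12 between control regions, and 0 in the others. Leaving out 1 library gave 0 to 8 calls in the ventral comparison (8 without control ventral 1), 0 to 2 in the mean and in the difference, 0 to 6 between control regions and 0 to 1 for the slope. With a replicate block the count stayed at 0 in all 7 comparisons. Same-numbered libraries did not deviate together: over 18 pairs the correlations were -0.22 to 0.367 (median 0.00481), and 4 of 14 libraries correlated best with their own number, so the numbers were not taken to pair samples.

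The Acss2 difference in mean CPM, over both regions by exact permutation, was -15.2 (p = 0.049). By the same exact permutation test it was -10.2 with all ethanol libraries (p = 0.668), -0.62 on the log2 scale (p = 0.0506) and -15.1 with library size alone (p = 0.0629), and -20.4 to -11.5 without single libraries (p = 0.0019 to 0.126). In dorsal hippocampus it was -1.15 with all ethanol libraries, where 2 Acss2 reads among 5021 weigh as a full library, and in ventral hippocampus -16.9 to 0.887 without single libraries. The cause of the other changes was not tested. Acss2 rested on 119 to 753 reads a library.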
